A study of Oryctolagus cuniculus with 4 samples.

Results

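Genes that mark tissue macrophages were examined in rabbit ear hypertrophic scar (HS) tissue. The 8 genes were taken by symbol from a named list (CD68, CD163, C1QA, C1QB, C1QC, MRC1, CSF1R and AIF1), and 7 of them had a row among the 13913 genes of the table. CD68 was not analysed here. All 7 passed the filter on low values, which kept 9348 genes, although C1QB had a mean below the filter's minimum in HS and passed through its level in the other group.

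Single cell RNA sequencing libraries were prepared with droplets from the ventral epidermis and dermis of wild type female rabbits in which scars had been raised by skin excision on the ear. The HS group (2 libraries) carried untreated scars. The drug-loaded MNs group (2 libraries) carried scars that received a patch of drug-loaded microneedles (MNs), whose separating tips hold a prodrug of 5-fluorouracil acetic acid in crosslinked gelatin, each week for 3 weeks, and tissue was taken a week after the last patch. The study describes the samples as biologically independent, without saying whether each came from a different rabbit. The p-values below therefore rest on the spread between these tissues, whatever its source. In limma the spread of each gene is estimated partly from other genes of like level. Drug-free microneedles were not analysed here, so the drug and the needles cannot be told apart as sources of a difference.

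Macrophages of the dermis engulf dead cells and debris, present antigen and release factors that act on fibroblasts and vessels during wound repair. Their survival depends on the receptor encoded by CSF1R, and resident cells of the dermis are known for scavenger receptors such as those encoded by CD163 and MRC1. They are also a main source of C1q, the recognition molecule of the classical complement pathway, which is built from the chains encoded by C1QA, C1QB and C1QC.

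Each library was given as 1 value per gene, and no values per cell were present. Values are relative expression, and 1 unit is 1 part in 1000000 of the library total. Sequencing depth was unknown because every column had been scaled to the same total, so the number of libraries limited the precision. With 1 value per gene for a whole library, more cells of a type cannot be told apart from a higher level of the gene per cell. Fold changes were estimated by limma after log2(value + 1), so those of genes with low values are understated, and adjusted p-values are Benjamini-Hochberg values over all 9348 genes. A library held from 11844 to 12059 genes with values above 0, and mitochondrially encoded genes took 2.75% to 2.80% of the total in HS against 4.37% to 4.58% in drug-loaded MNs. The median log2 fold change over all tested genes was 0.12, and 64.6% of them lay above 0, which is the shift to set each fold change against.

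To examine whether macrophage genes differed between treated and untreated scars, each gene was compared between the groups. All 7 genes had higher relative expression in both drug-loaded MNs libraries than in either HS library, and such a lack of overlap in this direction was seen in 26.6% of all tested genes. Log2 fold changes ran from 0.82 to 1.79, with a median of 1.22, and exceeded 1 in 6 of the 7 genes against 2.78% of all tested genes. With a pseudocount of 5 only 3 of the 7 exceeded 1, and 4 of the 7 did under quantile normalization or with HS replicate 1 or drug-loaded MNs replicate 2 left out. The share of all tested genes above 1 was not counted in these alternatives. None of the 7 passed the limma threshold of an adjusted p of 0.05, which 0.0428% of all tested genes did (4 of 9348). Their limma adjusted p-values lay between 0.264 and 0.359. At an unadjusted p under 0.05, all 7 were counted, against 7.26% of all tested genes that were higher in drug-loaded MNs. The genes were chosen with earlier results of these data known, so these shares describe them and are not a test. Summed over the 7 genes, the HS libraries stood at 120 and 130 units, and the drug-loaded MNs libraries at 286 and 283 units.

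**Figure D1:**
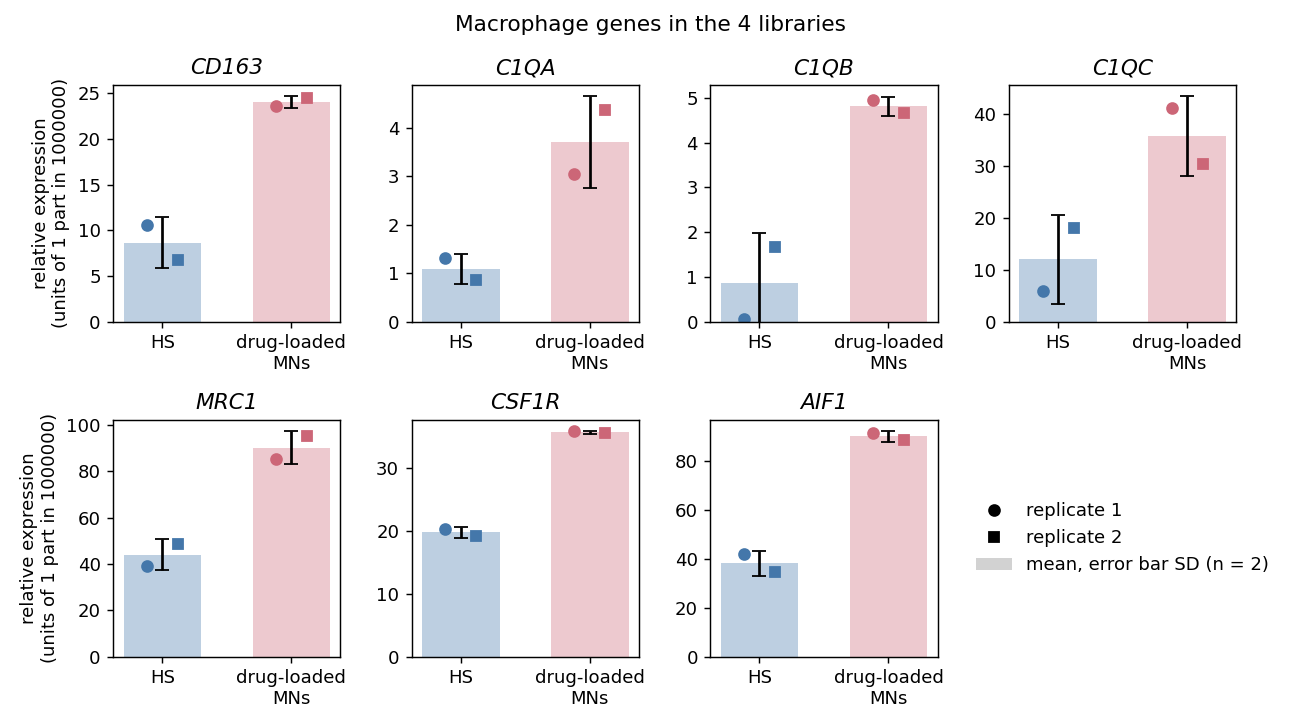
Relative expression (vertical axes, units of 1 part in 1000000, each starting at 0) of the 7 macrophage genes in HS and drug-loaded MNs. Circles and squares are replicates 1 and 2, bars are means and error bars are SD (n = 2 each), the lower end of the C1QB bar in HS being cut at 0. In every panel both drug-loaded MNs points lie above both HS points, and the HS points of C1QB and C1QC lie farthest apart in relation to their mean.

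CSF1R encodes the receptor for the growth factors CSF1 and IL34 that sustain macrophages. Its relative expression was 20.4 and 19.2 units in HS against 35.9 and 35.6 units in drug-loaded MNs. The replicates nearly coincided in both groups, and the lower drug-loaded MNs library stood 1.75 times above the higher HS library. The log2 fold change was 0.82 (SE 0.23, 95% interval 0.28 to 1.37, limma adjusted p 0.359), the smallest of the 7, although with a pseudocount of 5 that of C1QA was smaller (0.51 against 0.72).

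With all 4 libraries, the 2 genes for its ligands had smaller fold changes. CSF1 stood at 4.33 and 12.8 units in HS and at 10.5 and 15.7 units in drug-loaded MNs, so the groups overlapped. IL34, which keratinocytes are known to make, stood at 68.3 and 75.2 units in HS and at 64.3 and 62.2 units in drug-loaded MNs. Its log2 fold change was -0.18, with no overlap of the groups and lower values in drug-loaded MNs, and that of CSF1 was 0.70. Neither passed in limma.

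AIF1 encodes a calcium-binding protein (IBA1) that is used to stain macrophages. It was listed at 41.8 and 34.7 units in HS and at 91.7 and 88.5 units in drug-loaded MNs. Mean ± SD was 38.3 ± 5.08 units for HS (n = 2) and 90.1 ± 2.25 units for drug-loaded MNs (n = 2), so the gap between the groups was larger than the spread within either. With a log2 fold change of 1.22 (SE 0.23, 95% interval 0.69 to 1.75), AIF1 had the smallest limma adjusted p of the 7 genes, 0.264.

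Both scavenger receptor genes were higher in drug-loaded MNs. CD163, the receptor that clears haemoglobin bound to haptoglobin, stood at 10.6 and 6.72 units in HS and at 23.6 and 24.5 units in drug-loaded MNs. The HS libraries differed by 1.58 times and the drug-loaded MNs libraries by 1.04 times. Its log2 fold change was 1.40 (SE 0.29, 95% interval 0.71 to 2.09, limma adjusted p 0.296).

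MRC1 encodes the mannose receptor, which macrophages share with lymphatic endothelial cells. Its relative expression was 39.3 and 48.7 units in HS against 85.3 and 95.4 units in drug-loaded MNs. The lower drug-loaded MNs value was 1.75 times the higher HS value, and the log2 fold change was 1.03 (SE 0.23, 95% interval 0.49 to 1.57, limma adjusted p 0.314). Lymphatic endothelial markers differed in the same direction. All 6 tested ones were higher in drug-loaded MNs and did not overlap, against 26.6% of all tested genes, with a median log2 fold change of 1.21. Among them PROX1, the transcription factor of that lineage, went from 0.536 and 1.74 units in the HS libraries to 2.66 and 4.99 units in the drug-loaded MNs libraries (the order kept below), and CCL21, its chemokine, from 63.2 and 48.3 to 212 and 117 units. The summed level of the 7 lymphatic markers in the table was 105 and 92.1 in HS against 312 and 200.2 units in drug-loaded MNs, none of them being at 0 in every library. CCL21 made up the largest part of this sum in each library. LYVE1 and STAB1, which count among these markers, were also on the list of scavenger and resident macrophage genes. The part of lymphatic cells in the MRC1 difference was not tested.

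Of the C1q genes, C1QB and C1QC had the largest fold changes of the 7 macrophage genes and also the widest spread between HS replicates. In the rabbit assembly mOryCun1.1 the C1q genes lie side by side on chromosome 7, in the order C1QB, C1QC and C1QA. No other protein-coding gene lies between them. C1QC stood at 5.94 and 18.1 units in HS and at 41.2 and 30.4 units in drug-loaded MNs. HS replicate 2 was 3.05 times HS replicate 1, and the groups did not overlap. The log2 fold change was 1.66 (SE 0.46, 95% interval 0.58 to 2.74, limma adjusted p 0.352).

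C1QB stood at 0.065 and 1.66 units in HS and at 4.96 and 4.67 units in drug-loaded MNs. HS replicate 1 was close to 0 for this gene, while the drug-loaded MNs libraries differed by only 1.06 times. Its log2 fold change was 1.79 (SE 0.45, 95% interval 0.74 to 2.84, limma adjusted p 0.335), the largest of the 7. For so low a gene this value follows the pseudocount, and it was 3.19 with a pseudocount of 0.1 and 0.76 with 5.

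C1QA stood at 1.31 and 0.868 units in HS and at 3.04 and 4.37 units in drug-loaded MNs, with a log2 fold change of 1.16 (SE 0.32, 95% interval 0.42 to 1.91, limma adjusted p 0.350). The order of the HS replicates was the reverse of that of C1QB and C1QC, with HS replicate 1 the higher library. The ratio of C1QA to C1QC was accordingly uneven, at 0.221 and 0.0479 in HS against 0.0738 and 0.144 in drug-loaded MNs, and the groups overlapped. The ratio of C1QB to C1QC was 0.0110 and 0.0917 in HS against 0.121 and 0.154 in drug-loaded MNs.

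**Figure D2:**
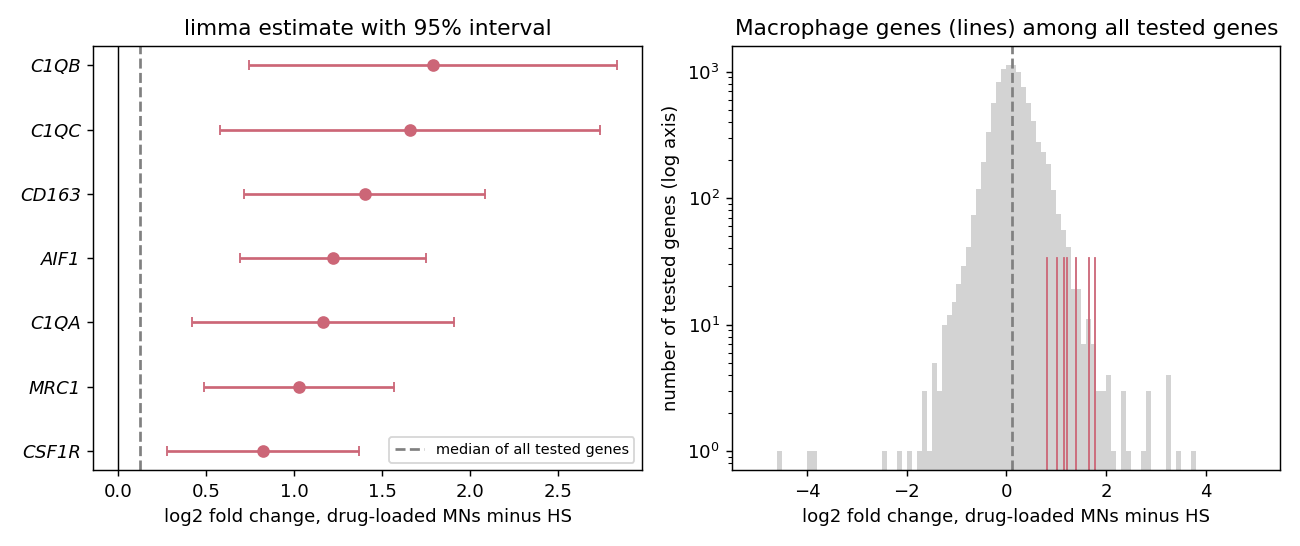
Left, limma log2 fold change (drug-loaded MNs minus HS, horizontal axis) of each macrophage gene with its 95% interval, from 0.82 for CSF1R to 1.79 for C1QB. Right, the number of tested genes (log axis) by log2 fold change, with the macrophage genes as lines in its upper tail and the median of all genes (0.12) as a dashed line.

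Leaving out 1 library kept all 7 genes higher in drug-loaded MNs. The values of C1QB and C1QC shifted most. Without HS replicate 1 the log2 fold change of C1QC was 0.93 and that of C1QB 1.13, and without HS replicate 2 they were 2.39 and 2.45. C1QC passed in limma without drug-loaded MNs replicate 2 (log2 fold change 1.87, limma adjusted p 0.0331), a fit in which the lone library is assumed to vary like the HS group. CSF1R stayed between 0.78 and 0.86 and AIF1 between 1.09 and 1.35. CD163 had its lowest value, 1.104, without HS replicate 2 and its highest, 1.70, without HS replicate 1, where it was the largest of the 7.

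**Figure D3:**
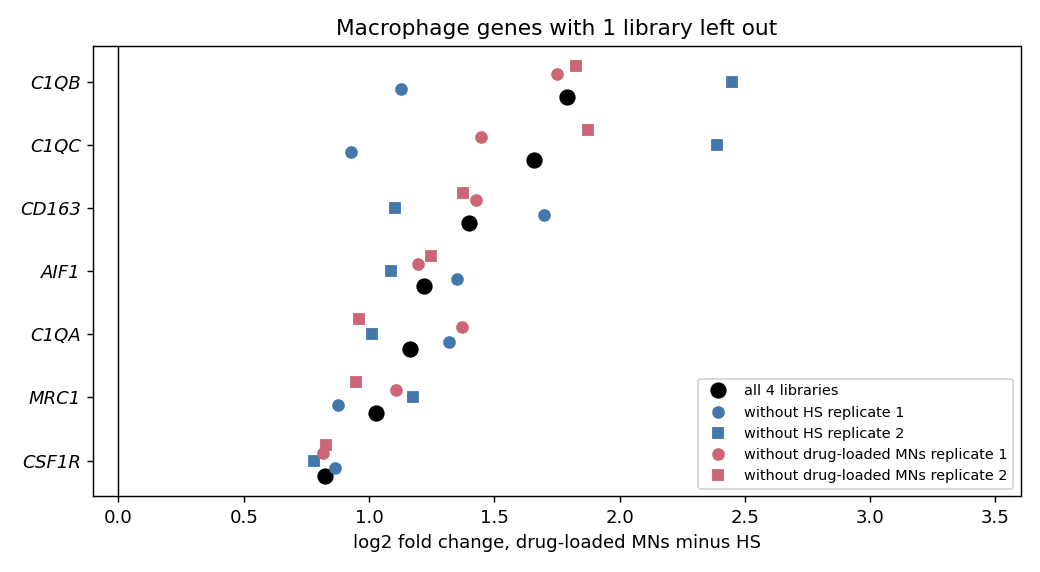
Log2 fold change (drug-loaded MNs minus HS, horizontal axis) of each macrophage gene with all 4 libraries (black) and with each library left out in turn (blue, HS; red, drug-loaded MNs). All points lie above 0, those of CSF1R between 0.78 and 0.86 and those of C1QC between 0.93 and 2.39.

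Whether the macrophage genes differed by like amounts was looked at within libraries, since a ratio of 2 genes of 1 library does not depend on its scaling. CSF1R lagged behind AIF1 and CD163 in these ratios. The ratio of AIF1 to CSF1R was 2.05 and 1.80 in HS against 2.55 and 2.48 in drug-loaded MNs, and the ratio of CD163 to CSF1R was 0.521 and 0.350 in HS against 0.656 and 0.687 in drug-loaded MNs. Neither ratio overlapped between the groups. The ratio of MRC1 to CSF1R did overlap, at 1.93 and 2.54 in HS against 2.37 and 2.68 in drug-loaded MNs. Each gene was also set against the mean log2(value + 1) of the other 6 genes, which does depend on scaling through the pseudocount. By this measure CSF1R was 0.55 lower in drug-loaded MNs (ratios of 1.35 and 0.95 in HS, 0.61 and 0.59 in drug-loaded MNs, pooled SD 0.20). This difference was -0.88 with a pseudocount of 0.1 and -0.25 with 5. MRC1 against the other 6 differed by -0.32 between drug-loaded MNs and HS, which became 0.035 with a pseudocount of 5. For CD163, AIF1 and the C1q genes these ratios overlapped between the groups. These ratios were not tested, since with 2 libraries in each group the smallest two-sided p of an exact permutation test is 0.333.

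PTPRC, which encodes the CD45 antigen of all leukocytes, gave a reference within the immune cells. It stood at 19.5 and 18.5 units in HS and at 43.7 and 49.3 units in drug-loaded MNs (log2 fold change 1.24, limma adjusted p 0.264). CD53, another leukocyte gene, overlapped between the groups, at 151 and 110 units in HS against 83.6 and 116 in drug-loaded MNs. The ratios below therefore hold only for PTPRC as the reference, and ratios to CD53 were not computed. Relative to PTPRC, AIF1 stood at 2.14 and 1.87 in HS and at 2.099 and 1.80 in drug-loaded MNs, and CD163 at 0.544 and 0.363 in HS against 0.539 and 0.497 in drug-loaded MNs. Both ratios overlapped between the groups. The ratio of CSF1R to PTPRC was lower in drug-loaded MNs, at 1.04 and 1.04 in HS against 0.822 and 0.723 in drug-loaded MNs. The ratio of MRC1 to PTPRC was also lower, at 2.01 and 2.63 in HS against 1.95 and 1.94. C1QA to PTPRC was slightly higher, at 0.0671 and 0.0468 in HS against 0.0696 and 0.0887 in drug-loaded MNs. C1QB to PTPRC was 0.00333 and 0.0896 in HS against 0.114 and 0.0948, with C1QB close to 0 in HS replicate 1. The CSF1R, MRC1, C1QA and C1QB ratios did not overlap between the groups, but those of MRC1, C1QA and C1QB came close to it. Like the ratios above, the ratios to PTPRC were not tested. C1QC to PTPRC overlapped, at 0.304 and 0.978 in HS against 0.942 and 0.617.

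Other genes of macrophages were read from fixed lists, and each list below lacked rows for some of its genes. A row was present for 14 of 27 lineage regulators and myeloid adaptors, 11 of 21 scavenger genes and 6 of 13 complement genes. Over all tested genes, 64.6% had a log2 fold change above 0 and 26.6% were higher in drug-loaded MNs without overlap. A share of 7.26% was higher at an unadjusted p under 0.05 in limma. The counts of the lists below are to be set against these shares. Of 13 tested lineage regulators and myeloid adaptors, 12 were higher in drug-loaded MNs, each without overlap, and the median log2 fold change was 0.90 (0.50 with a pseudocount of 5). SYK, a kinase of immune receptor signalling, passed the filter only through drug-loaded MNs (mean 0.605 units in HS) and is named because of that. With no filter the count was 13 of 14. None passed the adjusted threshold in limma, and 8 had an unadjusted p under 0.05. SPI1, the transcription factor PU.1 that macrophages require, went from 6.93 and 2.63 to 11.2 and 11.0 units. TREM2, a lipid-sensing receptor of macrophages, went from 8.65 and 6.45 to 15.8 and 25.1 units and had the largest log2 fold change of the list, 1.31. LAPTM5, a lysosomal protein of leukocytes, went from 30.2 and 24.1 to 61.1 and 60.1 units. LY86 lay nearest to 0, with a log2 fold change of 0.10. CD53, a leukocyte tetraspanin, was the 1 gene of the list that was lower (log2 fold change -0.39) and is named because of that value.

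Scavenger and resident macrophage genes were mixed. Of 9 tested genes, 7 were higher without overlap and 2 were lower, with a median log2 fold change of 0.75, and none passed the adjusted threshold in limma. MSR1, a scavenger receptor, went from 1.23 and 1.82 to 4.45 and 3.28 units, and SIGLEC1, the sialoadhesin of resident macrophages, from 13.8 and 10.3 to 20.9 and 22.8 units. LYVE1 (log2 fold change 1.22), which is also a lymphatic marker, had the largest difference. The lower genes were HMOX1, the haem-degrading enzyme, at -0.30, and SLC40A1, the iron exporter, at -0.02, both overlapping between the groups, and HMOX1 is named because of its value.

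Among the complement genes that act with C1q, all 5 tested were higher in drug-loaded MNs without overlap, with a median log2 fold change of 0.60. VSIG4, a complement receptor of macrophages, passed the filter only through drug-loaded MNs (mean 0.638 units in HS), and with no filter the count was 6 of 6 and the median 0.59. C1S and C1R encode the proteases that bind C1q, and fibroblasts are known to make them. C1S went from 98.1 and 128 to 249 and 207 units (log2 fold change 1.01) and C1R from 295 and 283 to 457 and 395 units (log2 fold change 0.56). C2, a substrate of C1s, went from 11.9 and 10.3 to 20.03 and 21.7 units. None passed the adjusted threshold in limma, and 4 of the 5 had an unadjusted p under 0.05.

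Phagolysosome and lipid handling genes had a smaller median log2 fold change, 0.51 over 14 tested genes, 11 of them higher and 3 lower. LIPA, the lysosomal acid lipase, went from 23.3 and 40.1 to 75.2 and 69.9 units, and SPP1 (osteopontin) from 6.16 and 4.16 to 15.6 and 10.8 units. NPC2, a lysosomal cholesterol carrier, lay near 0 (log2 fold change 0.04). GPNMB, a gene of lipid-laden macrophages and of pigment cells, was lower in drug-loaded MNs (log2 fold change -0.29), as were FABP5 (-0.15) and GLMP (-0.05), and all 3 are named because of these values. Most genes of this list are also used by other skin cells.

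Monocyte and inflammatory genes were mixed in direction. Of 14 tested genes, 9 were higher and 5 lower, with a median log2 fold change of 0.44 that became 0.0093 with a minimum mean of 5. CD14, the lipopolysaccharide co-receptor, went from 12.9 and 10.1 to 27.6 and 24.4 units (log2 fold change 1.11), and TLR2, a receptor for bacterial lipoproteins, from 1.20 and 1.89 to 5.83 and 3.19 units. By contrast, CXCL8, a neutrophil chemoattractant, had a log2 fold change of 0.0093. S100A8, an alarmin of neutrophils, monocytes and stressed keratinocytes, stood at 153 units in HS replicate 1 against 12.6 in HS replicate 2, and at 13.6 and 32.3 in drug-loaded MNs. IL1A, named for its value, was the 1 gene of the list that was lower at an unadjusted p under 0.05 (log2 fold change -0.64), and 6 were higher at that level.

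The median log2 fold change of antigen presentation genes was 0.14, close to that of all genes. CD74, the chaperone of class II molecules, went from 131 and 176 to 252 and 269 units (log2 fold change 0.78), and CD80, a co-stimulatory ligand, had a log2 fold change of 0.93. CIITA, the activator of class II genes, was at -0.03 and B2M, the light chain of class I molecules, at 0.05. TAP1, a peptide transporter for class I molecules, was at -0.77. None passed the adjusted threshold in limma.

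**Figure D4:**
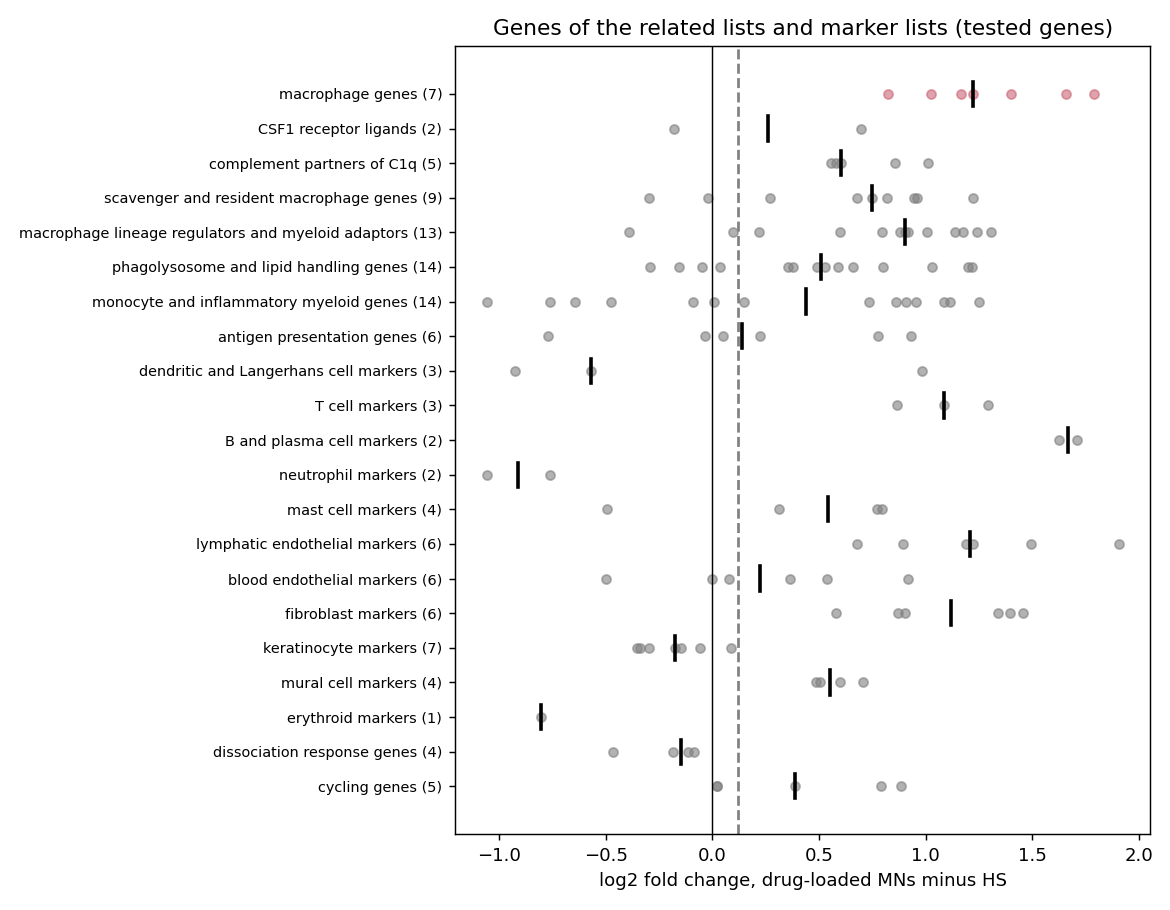
Log2 fold change (drug-loaded MNs minus HS, horizontal axis) of every tested gene in the macrophage list (red) and in the related and marker lists (grey), with the list median as a black bar and the number of tested genes in parentheses. The dashed line is the median of all tested genes (0.12), and the medians of the macrophage (1.22), lymphatic endothelial (1.21) and fibroblast (1.12) lists lie close to each other.

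Markers of other cells were higher beside the macrophage genes in some lists. Fibroblast markers had a median log2 fold change of 1.12, with all 6 tested genes higher and without overlap, and their summed level was 22996 and 22526 units in HS against 44682 and 48616 in drug-loaded MNs, with none at 0. Of 9 listed T cell markers, only CD4, CD2 and IL7R had a row, and the CD3 genes had none. These 3 were all higher (median 1.08), and the summed level of this list was 6.53 and 5.77 in HS against 18.5 and 14.3 units in drug-loaded MNs. CD2 had a mean of 0.897 units in HS and passed the filter through drug-loaded MNs, and its value, 1.08, is the list's median. Macrophages can also carry CD4. Keratinocyte markers had a median of -0.18 (0.046 without HS replicate 2), with 1 of 7 higher and every gene overlapping between the groups. Mast cell markers had a median of 0.54, with 1 of 4 not overlapping, and this median was below 0 when replicate 2 of HS (-0.11) or of drug-loaded MNs (-0.097) was left out. The neutrophil list rested on 2 tested genes, both lower and both overlapping, and its median was 0.88 without HS replicate 1 and -0.070 with no filter. Of the dendritic and Langerhans cell markers, CD1A and CD1C were lower (log2 fold changes -0.93 and -0.57) and CCR7 was higher (0.98). CD1A passed the filter only through HS and CCR7 only through drug-loaded MNs, and the median of the 3 was above 0 without HS replicate 1 (0.39) or HS replicate 2 (0.017). The part of these cells in the macrophage differences was not tested.

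The remaining lists were closer to the median of all genes or rested on few genes. Medians were 0.22 for 6 blood endothelial, 0.55 for 4 mural and 0.39 for 5 cycling genes and -0.15 for 4 dissociation response genes. The blood endothelial median was -0.0043 without HS replicate 1, and the dissociation median was 0.20 without HS replicate 2. The cycling median was -0.27 without HS replicate 2, and leaving out replicate 1 or 2 of drug-loaded MNs gave -0.34 or 1.48. The B and plasma cell list (2 genes, median 1.67, or 0.31 with no filter) rested on drug-loaded MNs replicate 2, where MZB1 stood at 9.26 units against at most 0.0763 in the other libraries, and both of its genes passed the filter only through drug-loaded MNs. HBB2, the 1 erythroid gene tested, passed only through HS and was at -0.80, and with no filter the erythroid median was -0.026.

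Other genes shared the pattern of the macrophage genes over the 4 libraries. After centring, the mean of the 7 genes stood at -0.78 and -0.52 in HS and at 0.64 and 0.65 in drug-loaded MNs on the log2 scale. The 10 genes with a symbol whose centred log2 values lay nearest to it by Euclidean distance over the 4 libraries were FABP7, CTHRC1, PENK, OSR1, DPT, NID2, OSR2, FREM1, PDE1A and RNASE6, at distances of 0.0893 to 0.223. The 7 macrophage genes themselves lay at 0.293 (MRC1) to 0.973 (C1QC). DPT encodes dermatopontin, a dermal matrix protein, and went from 66.9 and 73.8 to 194 and 165 units. CTHRC1, a secreted protein of fibroblasts in repair, went from 155 and 187 to 419 and 388 units. RNASE6, a secreted ribonuclease of myeloid cells, went from 4.62 and 4.76 to 12.3 and 11.3 units. With 4 libraries in 2 groups, nearness to the profile is mainly a like fold change.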

How the data were processed

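One table of 4 libraries was analysed. Per the labels and the methods, the authors used 10x Genomics droplets, Cell Ranger 2.1.1 and Seurat, with filters on cells and a correction of technical differences between samples. Whether that correction, which would alter the differences given here, entered the deposited values was not stated. The sources used here do not say whether doublets were removed, which 1 value per gene and library cannot show. The processing notes name mm10, a mouse build, while the gene identifiers are those of rabbit, so the build used is unclear. The deposited signal was 1 value per gene and library. Its file is named for FPKM, but each column summed to 10000, so no length correction was assumed and counts were not available.

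Of the 884 to 1082 lowest values of a library (at most 20 times its smallest), 18.5% to 21.7% lay within 0.1 of a whole multiple of the smallest, so whole reads were not recovered and no count model was run. The number of libraries therefore limits precision. Values were rescaled to a total of 1000000 and genes with a mean of at least 1 were kept. Log2(value + 1) was fitted across all genes with limma 3.58.1 (lmFit, then eBayes with trend) in R 4.3.3, as 2 libraries against 2 with no covariate. P-values were two-sided and Benjamini-Hochberg adjusted, with a threshold of 0.05. The fit was tested on simulated data. All 7 symbols matched the RefSeq gene list, which was used only for gene order.

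The macrophage genes, related lists and marker lists were chosen with earlier results of these data known. Lists are described by counts and medians, with no test. Named were all macrophage genes, in each list up to 4 genes with the largest absolute log2 fold change and up to 2 nearest to 0, and the 10 genes of most alike pattern. Genes named outside that rule are marked as such. Other scalings, pseudocounts, filters, no variance trend, a replicate block and leaving out each library were tried.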

Additional observations from a re-analysis of the deposited data

How the results depend on the processing

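All 7 macrophage genes were higher in drug-loaded MNs in every alternative in which they were tested (13 each, 12 for C1QA and C1QB, which fall below a minimum mean of 5). Their median log2 fold change (1.22) ran from 0.96 to 1.495 over the 13 alternatives and from 1.104 to 1.37 with 1 library left out. The number of macrophage genes past the limma threshold (0) was 5 with the replicate number as a block (CD163, C1QB, C1QC, MRC1 and AIF1, limma adjusted p 0.00127 to 0.0207; C1QA 0.0737 and CSF1R 0.160), and 0 to 1 with 1 library left out. The labels give no other tie. Across genes, the correlation of deviations from group means was 0.22 for equal numbers, but 2 pairs cannot establish a pairing, and the block leaves 1 residual degree of freedom. The cause was not tested.

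Over all genes, 4 passed the threshold. This count was 0 with no filter, with a pseudocount of 5, under quantile normalization and under median ratio scaling, 1 with a total without mitochondrially encoded and ribosomal protein genes and 1 without a variance trend, 241 with the block, and 0 to 75 with 1 library left out (0 without HS replicate 1, 48 and 75 without replicates 1 and 2 of drug-loaded MNs). Quantile normalization took the median of all tested genes from 0.12 to -0.02 and median ratio scaling took it to -0.01, and under both all 7 macrophage genes still had an unadjusted p under 0.05.

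Within-library ratios depended on the pseudocount. CSF1R against the other macrophage genes (-0.55) was -0.88 with a pseudocount of 0.1, -0.25 with 5 and -0.41 among the 4 genes outside C1q without a pseudocount, an alternative chosen after seeing the data that gave -0.16 for MRC1. C1QB was 1.84 and -0.21 with pseudocounts of 0.1 and 5, MRC1 -0.66 and 0.035, and AIF1 -0.43 and 0.24. With 1 library left out the ratios ran from -0.76 to -0.35 for CSF1R, -0.40 to -0.23 for MRC1, -0.38 to 0.62 for CD163, -0.40 to 0.22 for AIF1, -0.49 to 0.18 for C1QA, -0.045 to 1.19 for C1QB and -0.28 to 1.12 for C1QC.

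List medians shifted as follows by more than the spread between libraries. Antigen presentation genes were at 0.018 under median ratio scaling. Under quantile normalization dendritic and Langerhans markers were at -0.83 and T cell markers at 0.87. A pseudocount of 0.1 gave 0.91 for complement partners and 1.57 for T cell markers. A pseudocount of 5 gave 0.54 for scavenger genes, -0.31 for dendritic and Langerhans markers, 0.49 for T cell markers and 0.69 for lymphatic markers. Without filter the dendritic and Langerhans median was -0.22. With 1 library left out some shifts were that large. Ranges were -0.65 to 0.39 for dendritic and Langerhans, -0.52 to 0.046 for keratinocyte and -0.66 to 0.20 for dissociation response genes. They were -0.34 to 1.48 for cycling, 0.33 to 0.67 for phagolysosome, 0.83 to 1.34 for T cell and 0.14 to 0.27 for antigen presentation. The other medians stayed within that spread, including -2.58 to 0.88 for neutrophil and -0.12 to 0.64 for CSF1 receptor ligand genes. Mast cell genes ran from -0.11 to 1.09 and blood endothelial genes from -0.0043 to 0.52. The erythroid median stayed below 0 and the rest above 0, the lowest being 0.13 for mural genes. The B and plasma cell list had no gene left without drug-loaded MNs replicate 2, nor the erythroid list without HS replicate 1. With a minimum mean of 5 no gene of these, the T cell or the dendritic and Langerhans list was left. No limit from depth could be given, as depth was unknown. Count models were not run, as whole reads were not recovered.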
